A study of Mus musculus with 12 samples.

Results

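The genes described are 9 genes of neutrophil recruitment and neutrophil content: the chemokines Cxcl1 and Cxcl3, the growth factor receptor Csf3r, the calprotectin subunits S100a8 and S100a9, the granule genes Camp and Ctsg, and the myeloid receptors Trem1 and Clec4e. They were chosen by symbol, and all 9 had a row among the 547 genes of the deposited table. Total RNA from terminal ileum, taken from 12 females, had been measured with NanoString probes, which count molecular barcodes without amplification. The mice formed 4 groups of 3. IL10_STAT and IL10_control carried the genotype label IL10, for IL10 deficient pups, and WT_STAT and WT_control the label C57, for C57BL/6 pups. Their mothers had been exposed to antibiotic-perturbed cecal contents, called STAT, or to control cecal contents. The labels named no age, mother, litter or cage, so a p-value measured only the spread between these mice, and mice of a group may share a mother.

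Neutrophils are short-lived white blood cells that leave the blood for inflamed tissue and are rare in the healthy gut wall. Cxcl1 and Cxcl3 are chemokines made by epithelial, stromal and myeloid cells, and they draw neutrophils in through the receptor Cxcr2. Csf3r is the receptor for granulocyte colony-stimulating factor, which drives neutrophil production and release. S100a8 and S100a9 pair as calprotectin, a metal-binding protein that fills the neutrophil cytosol and is measured in stool as a sign of bowel inflammation. Camp encodes the antimicrobial peptide cathelicidin and Ctsg the granule protease cathepsin G, both transcribed mainly while neutrophils mature in bone marrow. Trem1 amplifies inflammatory signals in neutrophils and monocytes, and Clec4e (Mincle) is a lectin receptor that recognises mycobacterial glycolipid and dead cells.

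Promoter sequences are shown for both gene pairs that lie close together in the genome and whose signals were high in the IL10-labelled samples. All 9 genes had a promoter in RefSeq (GRCm38.p6), 300 bases from 250 before to 50 after the annotated gene start. Cxcl1 and Cxcl3 lie on chromosome 5, with 1 other protein-coding gene start, that of Cxcl15, between theirs. The sequences below, both on the + strand, have the matches to the kappa-B motif in capitals. The motif is GGG then any 2 bases then TTTCC, on either strand.
Cxcl1, chr5:90890995-90891294: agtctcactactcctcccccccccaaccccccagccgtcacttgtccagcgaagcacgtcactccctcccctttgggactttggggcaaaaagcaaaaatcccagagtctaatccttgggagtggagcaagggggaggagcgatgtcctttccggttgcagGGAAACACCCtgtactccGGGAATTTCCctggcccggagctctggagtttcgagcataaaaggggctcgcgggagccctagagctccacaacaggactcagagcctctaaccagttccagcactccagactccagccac
Cxcl3, chr5:90785851-90786150: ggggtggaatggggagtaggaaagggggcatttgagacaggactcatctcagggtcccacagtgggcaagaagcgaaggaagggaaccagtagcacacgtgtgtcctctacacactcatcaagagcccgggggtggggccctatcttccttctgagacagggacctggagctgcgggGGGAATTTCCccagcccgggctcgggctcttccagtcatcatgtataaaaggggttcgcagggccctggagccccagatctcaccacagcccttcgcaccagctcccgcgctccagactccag
The same run, GGGAATTTCC, began 71 bases before the start of Cxcl1 and 73 bases before that of Cxcl3, and Cxcl1 held a further match on the opposite strand, GGAAACACCC, 89 bases before its start. Of 32851 mouse promoters of this length, 1.63% held the kappa-B motif, and among the 9 genes only these 2 did. S100a8 and S100a9 are neighbours on chromosome 3 with no other protein-coding gene start between them, and they run on the + and the - strand. Capitals in their promoters mark TATAAA, searched on the gene's strand only.
S100a8, chr3:90668821-90669120: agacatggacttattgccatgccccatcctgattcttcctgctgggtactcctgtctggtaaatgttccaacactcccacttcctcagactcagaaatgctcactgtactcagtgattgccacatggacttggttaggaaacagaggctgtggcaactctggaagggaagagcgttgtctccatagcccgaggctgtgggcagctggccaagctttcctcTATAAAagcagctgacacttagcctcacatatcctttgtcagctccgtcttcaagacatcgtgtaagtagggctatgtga
S100a9, chr3:90695672-90695971: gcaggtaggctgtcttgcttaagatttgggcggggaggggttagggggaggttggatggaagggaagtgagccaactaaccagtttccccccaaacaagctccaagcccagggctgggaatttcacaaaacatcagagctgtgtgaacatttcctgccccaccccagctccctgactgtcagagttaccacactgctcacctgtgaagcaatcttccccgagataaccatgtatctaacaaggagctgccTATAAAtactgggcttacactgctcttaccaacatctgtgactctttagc
TATAAA began 30 bases before the start of S100a8 and at the annotated first base of S100a9, and 8.32% of promoters held it. It was also found in Clec4e and Cxcl3, so in 4 of the 9 genes. The C/EBP-type motif TTNNGCAA, searched on either strand, was found in S100a9 and Clec4e, and in 10.8% of all promoters. No matches of different motifs overlapped in these 9 promoters. A match in this window describes the letters only.

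In each sample the positive values rose in equal steps, of 0.703 to 1.56 signal units. Each step was taken as 1 barcode count, an inference from the values, as the scaling was not stated. On that reading the samples held 146691 to 717454 counts above background. Every IL10-labelled sample held 398625 or more and every C57-labelled sample 365850 or fewer, so genotype label and count cannot be told apart. The signal of Il10 went the opposite way to its label: it was 24.9 to 74.4 in the IL10-labelled samples and 0 to 1.02 in the C57-labelled samples, and a probe that binds outside the disrupted part would check nothing; the position of this probe is unknown. Directions below are therefore between samples as labelled. The 7 ileal marker genes listed were not analysed here. Of the epithelial markers, Muc1, Pigr and Nox1 were measured, with a summed signal of 13349 to 51168 in the 12 samples. IL10_control sample 2 had the highest and IL10_control sample 3 the lowest value of the 6 IL10-labelled samples for 60 of the 457 genes tested (13.1%). Folds given below as lower bounds that move by more than 1.5 times without either sample are given without it too.

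**Figure D1:**
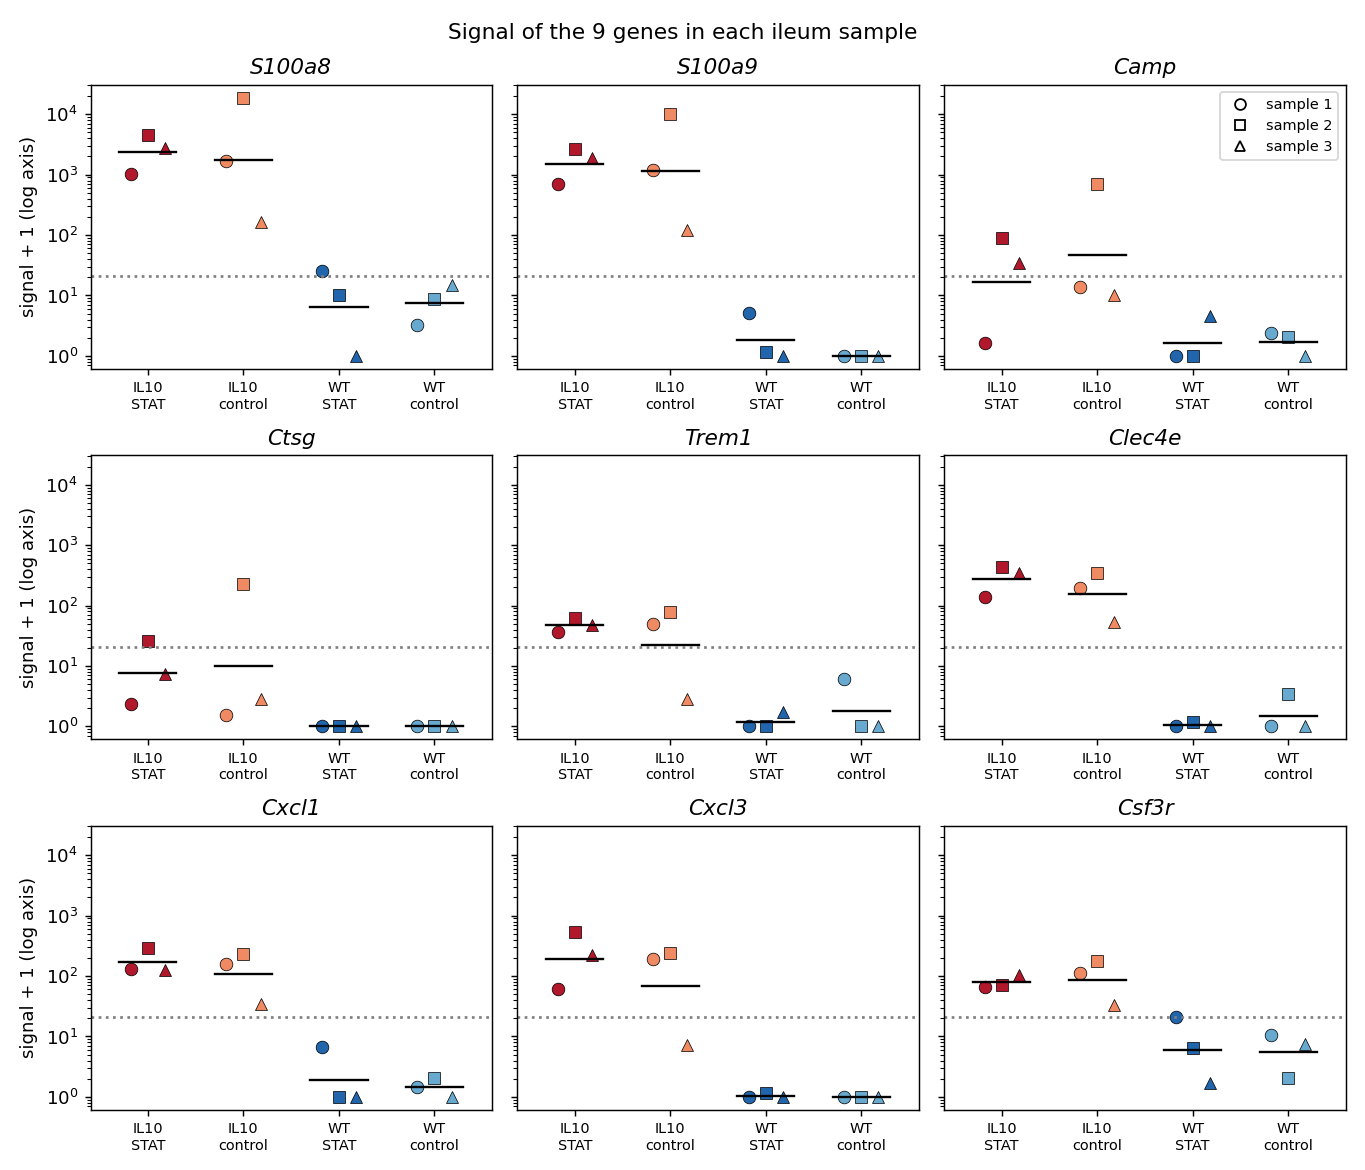
Signal plus 1 on a log axis for each of the 9 genes in the 12 samples, in 4 groups of 3. Points are samples (circle 1, square 2, triangle 3), black lines are means on the log2 scale, and the dotted line marks a signal of 20. In the C57-labelled groups 1 of 54 points lies above the line, S100a8 in WT_STAT sample 1 at 24.4, and IL10_control sample 3 lies lowest in its group for 8 of the 9 genes, all but Ctsg.

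All 9 genes had a higher mean signal in the IL10-labelled than in the C57-labelled groups, under either inoculum, with 45 of 54 values at 20 or more in IL10-labelled samples. In C57-labelled samples 30 of 54 values were 0, and the highest of the others was 15.6 counts above background. More neutrophils in the tissue and more RNA per cell cannot be told apart in such bulk samples. Of the 9 genes, 8 passed the filter on low values (20 or more signal units in 3 or more samples), and Ctsg did not. They met it only through their IL10-labelled samples, so they had to differ between the labels. Their counts of calls and their p-values between labels are therefore a description. A p-value printed beside a bound below belongs to the fitted difference in log2(signal + 1), not to the bound. In limma's test, 7 of 8 passed as higher in IL10_STAT than in WT_STAT, where 40% of all 457 genes tested passed as higher and 11.6% as lower. In IL10_control against WT_control 8 of 8 passed as higher, where 53.6% of all genes tested did and 3.94% passed as lower. The groups did not overlap for 7 of the 8 under either inoculum, against 47.3% of all genes tested under STAT and 56% under the control inoculum. The balance over all genes depended on the scaling. Under STAT, 183 genes passed as higher and 53 as lower, against 136 and 145 under median centring, 121 and 159 under quantile normalization, and 256 and 11 with each sample's step size divided out. Under the control inoculum 245 passed as higher and 18 as lower, against 154 and 183 under median centring and 124 and 186 under quantile normalization. With each sample's step size divided out, 213 passed as higher and 16 as lower there. Without centring, which aligns the medians of the samples, the median log2 difference over all genes tested was 0.50 under STAT and 1.01 under the control inoculum. The 8 tested genes stayed higher under these scalings. With median centring 7 passed under either inoculum, and with quantile normalization 7 passed under STAT and 6 under the control inoculum.

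Of the chemokines, Cxcl1 had a signal of 131, 290 and 124 in the IL10_STAT samples, against 5.66, 0 and 0 in the WT_STAT samples. Under the control inoculum Cxcl1 in the IL10_control samples was 160, 234 and 33.6, against 0.452, 1.02 and 0 in the WT_control samples. The ranges did not overlap under either inoculum, and the lowest IL10-labelled value was that of IL10_control sample 3. With the C57-labelled group set to a signal of 20, Cxcl1 was at least 8.02-fold higher under STAT (adjusted p = 0.00013 in limma's test) and at least 5.20-fold higher under the control inoculum (adjusted p = 7.87e-05), a bound that was 9.25-fold without IL10_control sample 3.

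Cxcl3 had a signal of 59.01, 530.4 and 226 in the IL10_STAT samples, against 0, 0.162 and 0 in the WT_STAT samples. In the IL10_control samples it was 190.0, 239 and 6.14, and it was listed at 0 in all 3 WT_control samples. IL10_STAT sample 2 was the highest, and IL10_control sample 3 was under 20 although above every C57-labelled sample. Cxcl3 was at least 9.21-fold higher under STAT (adjusted p = 0.000384 in limma's test) and at least 3.28-fold higher under the control inoculum (adjusted p = 0.000899). The STAT bound was 16.5-fold without IL10_STAT sample 1 and 5.55-fold without IL10_STAT sample 2. The control bound was 10.2-fold without IL10_control sample 3 and 1.76-fold without IL10_control sample 2.

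The receptor of these chemokines, Cxcr2, had a signal of 45.6, 74.1 and 83.1 in the IL10_STAT samples, against 0, 2.75 and 2.12 in the WT_STAT samples. Cxcr2 in the IL10_control samples was 53.2, 192 and 11.9, against 3.17, 5.12 and 0 in the WT_control samples. It passed as higher in the IL10-labelled samples under both inocula (adjusted p = 0.00155 under STAT and 0.00298 under the control inoculum, limma). Its relative Cxcr1 stayed at or below 8.02 in all 12 samples and was not tested. The tested cytokines known to induce Cxcl1 and Cxcl3 had higher means in the same samples. Il1b averaged 1323 ± 744 in IL10_STAT and 21.6 ± 5.55 in WT_STAT, and 913 ± 700.3 in IL10_control and 14.2 ± 8.46 in WT_control (SD, n = 3 each; adjusted p = 0.000384 and 0.000325, limma). Tnf averaged 258 ± 77.0 in IL10_STAT and 11.5 ± 8.48 in WT_STAT, and 179 ± 52.4 in IL10_control and 5.82 ± 3.09 in WT_control (SD, n = 3 each; adjusted p = 0.000106 and 3.57e-05, limma). Il17a averaged 32.5 ± 10.7 in IL10_STAT and 0.325 ± 0.563 in WT_STAT, and 21.7 ± 12.8 in IL10_control and 2.92 ± 2.63 in WT_control (SD, n = 3 each; adjusted p = 0.000251 and 0.00427, limma). Of the 12 listed inducers 9 were measured and 6 were tested. Il22, Csf2 and Il23a fell under the filter, and Il23a had a higher mean in IL10-labelled samples under STAT only. All 6 passed as higher under STAT, where 40% of all genes tested did. Under the control inoculum 5 passed as higher, where 53.6% of all genes tested did, the exception being Il17f (adjusted p = 0.33, limma). Tnf, Il1a, Il6, Il17a and Il17f, and Cxcr2 as well, reached 20 only in IL10-labelled samples. Their calls are therefore a description, as for the 9 genes.

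The growth factor receptor Csf3r had a signal of 65.3, 71.1 and 101 in the IL10_STAT samples, against 19.7, 5.34 and 0.708 in the WT_STAT samples. In the IL10_control samples it was 110.3, 175 and 32.1, against 9.50, 1.02 and 6.55 in the WT_control samples. Csf3r thus had the highest C57-labelled values after S100a8, and the ranges still did not overlap. It was at least 3.75-fold higher under STAT (adjusted p = 0.00599 in limma's test) and at least 4.12-fold higher under the control inoculum (adjusted p = 0.00291), a bound that was 6.67-fold without IL10_control sample 3. Its ligand Csf3 was not analysed here. Csf2rb, the shared chain of the GM-CSF, IL-3 and IL-5 receptors, averaged 245 ± 39.3 in IL10_STAT and 61.7 ± 3.99 in WT_STAT (adjusted p = 0.00095, limma).

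The calprotectin genes had the largest fitted log2 differences of the 8 tested genes. S100a8 had a signal of 1009, 4613 and 2764 in the IL10_STAT samples, against 24.4, 9.23 and 0 in the WT_STAT samples. In the IL10_control samples S100a8 was 1712, 18686 and 161, against 2.26, 7.84 and 13.8 in the WT_control samples. No IL10-labelled sample overlapped a C57-labelled sample, while the 3 IL10_control samples spanned a 116-fold range between samples 2 and 3. S100a8 was at least 82.4-fold higher under the control inoculum (adjusted p = 0.00134 in limma's test). That bound was 25.1-fold without IL10_control sample 2 and 269-fold without sample 3. Without both it was 81.6-fold, with a single mouse standing for IL10_control. Under STAT its log2 difference was 8.52 ± 1.58 (SE, adjusted p = 0.00124, limma), with no bound given because WT_STAT sample 1 lay above 20. Against values so near background the size depends on the setting, and it was 6.32 with a pseudocount of 20 and 6.71 with values under 20 set to 20.

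S100a9 had a signal of 698, 2650.0 and 1853 in the IL10_STAT samples, against 4.10, 0.162 and 0 in the WT_STAT samples. S100a9 in the IL10_control samples was 1208, 9999 and 120.2, and it was listed at 0 in all 3 WT_control samples. The order of the 6 IL10-labelled samples was that of S100a8. It was at least 71.9-fold higher under STAT (adjusted p = 0.000152 in limma's test) and at least 54.1-fold higher under the control inoculum (adjusted p = 5.25e-05). The control bound was 18.2-fold without IL10_control sample 2 and 166-fold without sample 3. S100a8 alone made up 3.34% of the summed signal of IL10_control sample 2 and 0.0279% of that of IL10_control sample 3, against at most 0.00648% in any C57-labelled sample.

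Of the genes listed as receptors of calprotectin or their co-factors, 5 were tested, and most differed little. Tlr4, a receptor for calprotectin and for bacterial lipopolysaccharide, averaged 698 ± 52.4 in IL10_STAT and 516 ± 133 in WT_STAT (adjusted p = 0.166), and 609.8 ± 44.9 in IL10_control and 556 ± 160 in WT_control (adjusted p = 0.594, limma, n = 3 each). Its co-receptor Cd14 rose by 1.89 ± 0.24 under STAT and by 1.79 ± 0.24 under the control inoculum (log2 ± SE, adjusted p = 0.00013 and 8.55e-05, limma). Cd36, a scavenger receptor for lipids, was lower in IL10_STAT, at 155 ± 20.9, than in WT_STAT, at 725 ± 229 (adjusted p = 0.000501, limma). Under the control inoculum the ranges of Cd36 overlapped, with 418 ± 129 in IL10_control and 592 ± 237 in WT_control (SD, n = 3 each; adjusted p = 0.282, limma).

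The granule genes were unevenly spread. Camp had a signal of 0.616, 87.1 and 32.9 in the IL10_STAT samples, against 0, 0 and 3.54 in the WT_STAT samples. Camp in the IL10_control samples was 12.6, 709 and 9.03, against 1.36, 1.02 and 0 in the WT_control samples. IL10_control sample 2 stood far above all others, and IL10_STAT sample 1 lay within the C57-labelled range. Camp did not pass under STAT (adjusted p = 0.127 in limma's test). Under the control inoculum it was at least 2.19-fold higher (adjusted p = 0.031), or 4.68-fold without IL10_control sample 3. Across the alternatives that tested it, adjusted p ran from 0.0163 to 0.411, and it no longer passed in 9 of 13, median centring (0.0654) among them. Without IL10_control sample 2 Camp was under the filter, and no fold was left, because IL10_control samples 1 and 3 were both under 20.

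Ctsg had a signal of 1.32, 25.2 and 6.49 in the IL10_STAT samples and 0.564, 223 and 1.81 in the IL10_control samples, and it was listed at 0 in all 6 C57-labelled samples. It reached 20 in 2 samples, IL10_STAT sample 2 and IL10_control sample 2, and was therefore not tested. Ltf, the granule protein lactoferrin, showed the same sample: it was 58.9 in IL10_control sample 2 and between 4.02 and 7.24 in the other IL10-labelled samples, and was also not tested. Mast cells carry Ctsg as well, and the measured markers of mast cells, basophils and eosinophils (Kit, Fcer1a and Ccr3, of 14 listed) summed to 116 to 151 in IL10_STAT and 134 to 254 in IL10_control, with 134 in IL10_control sample 2. Kit, also expressed by interstitial cells of the gut wall, made up most of this sum and was 83.2 in that sample, against 232 and 233 in samples 1 and 3. Fcer1a, at 6.58, 16.9 and 10.47, and Ccr3, at 14.1, 33.5 and 10.47 in IL10_control samples 1, 2 and 3, were instead highest in sample 2.

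Of the myeloid receptors, Trem1 had a signal of 35.8, 60.2 and 46.9 in the IL10_STAT samples, against 0, 0 and 0.708 in the WT_STAT samples. In the IL10_control samples Trem1 was 48.7, 77.7 and 1.81, against 4.98, 0 and 0 in the WT_control samples. The groups were apart under STAT, and under the control inoculum IL10_control sample 3 lay within the WT_control range. Trem1 was at least 2.27-fold higher under STAT (adjusted p = 0.00215 in limma's test) and at least 1.06-fold higher under the control inoculum (adjusted p = 0.0137). The control call was lost without IL10_control sample 1 (0.0578), IL10_control sample 2 (0.060), WT_control sample 2 (0.0516) or WT_control sample 3 (0.0543), under quantile normalization (0.371) and in a fit of only these groups (0.0543). The bound was 2.98-fold without IL10_control sample 3. Without IL10_control sample 1 or sample 2 no fold was left, because the remaining IL10_control samples averaged under 20 on the log2 scale.

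Clec4e had a signal of 139, 427 and 339 in the IL10_STAT samples, against 0, 0.162 and 0 in the WT_STAT samples. Clec4e in the IL10_control samples was 196, 345 and 52.3, against 0, 2.39 and 0 in the WT_control samples. Every IL10-labelled sample was above every C57-labelled sample. Clec4e was at least 13.0-fold higher under STAT (adjusted p = 1.16e-05 in limma's test) and at least 7.33-fold higher under the control inoculum (adjusted p = 1.45e-05). The control bound was 12.4-fold without IL10_control sample 3 and 4.88-fold without IL10_control sample 2.

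The signalling partners of these receptors were measured too. Tyrobp (DAP12), the adaptor through which Trem1 signals, averaged 1729 ± 199 in IL10_STAT and 908 ± 164 in WT_STAT (adjusted p = 0.0107), and 1962 ± 582 in IL10_control and 602 ± 99.7 in WT_control (adjusted p = 0.000208, limma, n = 3 each). Fcer1g, the adaptor of Clec4e, averaged 342 ± 98.9 in IL10_STAT and 147 ± 7.64 in WT_STAT (adjusted p = 0.00526), and 443 ± 144 in IL10_control and 98.3 ± 10.8 in WT_control (adjusted p = 7.87e-05, limma). Card9, which relays the Clec4e signal, passed as higher under STAT (log2 difference 1.16 ± 0.38, SE, adjusted p = 0.0248) and under the control inoculum (2.87 ± 0.38, adjusted p = 7.52e-05, limma). The kinase Syk passed under the control inoculum (log2 difference 1.11 ± 0.33, SE, adjusted p = 0.0121) and not under STAT (0.72 ± 0.33, adjusted p = 0.092, limma).

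Over the list of 44 further measured genes of chemokine, cytokine, growth factor, granule, receptor and adhesion pathways, 34 were tested. Under STAT, 21 passed as higher and 1 as lower in IL10-labelled samples, with a median log2 difference of 1.45 against 0.50 over all 457 genes tested, of which 40% passed as higher and 11.6% as lower. Under the control inoculum, 26 passed as higher and 0 as lower, with a median of 2.07 against 1.01 over all genes tested, of which 53.6% passed as higher and 3.94% as lower. The 26 and 0 became 18 and 6 under median centring and 16 and 7 under quantile normalization, and the 21 and 1 under STAT became 18 and 4 and 17 and 4. Apart from the receptors, adaptors and inducers already given, the genes of smallest p under the control inoculum were the oxidase subunit Cybb (3.10 ± 0.31), the adhesion genes Itgal (2.82 ± 0.29) and Icam1 (2.62 ± 0.27) and the receptor chain Csf2rb (3.07 ± 0.35, log2 difference ± SE). Under STAT they were Il1a, listed at 0 in all 3 WT_STAT samples and at a mean of 280 ± 230 in IL10_STAT, then Il17f, Cybb (1.95 ± 0.31) and Cd36. Il17f averaged 24.02 ± 2.48 in IL10_STAT and 1.35 ± 2.34 in WT_STAT (SD, n = 3 each, adjusted p = 0.000469, limma).

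Summed markers of macrophages and T cells differed between genotype labels too. The 7 measured macrophage and monocyte markers, of 11 listed, summed to 1646 to 1750 in IL10_STAT and 811 to 1497 in WT_STAT, and to 1845 to 2361 in IL10_control and 629 to 861 in WT_control. Of the 7, 4 passed as higher and 1 as lower under STAT, where 40% of all genes tested passed as higher and 11.6% as lower. Under the control inoculum 6 passed as higher, where 53.6% of all genes tested did. The lower gene was Cd163, a scavenger receptor of resident macrophages, at 25.9, 7.24 and 14.7 in the IL10_STAT samples, against 240, 182 and 145 in the WT_STAT samples (adjusted p = 0.000114, limma). None of the 7 was at 0 in all samples. The 11 measured T cell markers, of 12 listed, summed to 982 to 1317 in IL10_STAT and 394 to 493 in WT_STAT, and to 1289 to 2037 in IL10_control and 275 to 369 in WT_control. Of the markers listed as neutrophil genes apart from the 9, only Cxcr2 and Itgam were measured, and Itgam passed under the control inoculum (2.02 ± 0.50, log2 ± SE, adjusted p = 0.00449) and not under STAT (1.07 ± 0.50, adjusted p = 0.0992, limma). The part of these cell types in the signal of the 9 genes was not tested.

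STAT against control inoculum in IL10-labelled mice asks whether the perturbed microbiota of the mother changed the ileum of susceptible offspring. None of the 8 tested genes passed, and the ranges of the groups overlapped for all 9, where 1.97% of all genes tested were apart as higher and 21.2% as lower. The log2 difference was 1.49 for Cxcl3 (95% interval -1.06 to 4.04) and 0.62 for Cxcl1 (-1.20 to 2.45). It was 1.10 for Trem1 (-1.30 to 3.50) and 0.83 for Clec4e (-0.70 to 2.36). S100a8 stood at 0.44 (-3.05 to 3.93) and S100a9 at 0.41 (-2.39 to 3.21), and Camp at -1.44 (-5.17 to 2.28) and Csf3r at -0.14 (-2.14 to 1.87). All 8 intervals covered 0, and adjusted p was 0.842 to 0.985 in limma's test. Of all 457 genes tested 0% passed in either direction, against 3 higher (0.656%) and 28 lower (6.13%) at an unadjusted p under 0.05, with 0 of the 8 genes.

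**Figure D2:**
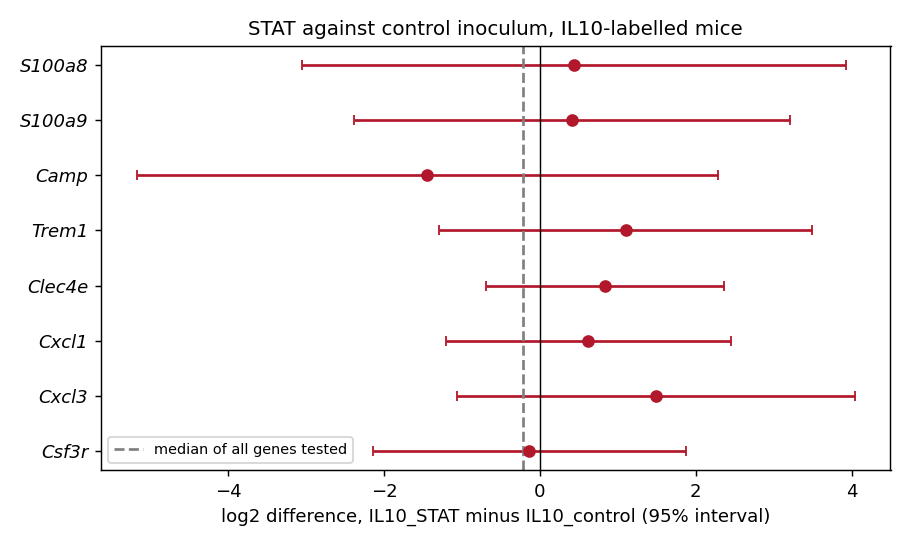
Log2 difference of signal plus 1, IL10_STAT minus IL10_control, for the 8 tested genes with the 95% interval from limma (n = 3 each). The black line is 0 and the dashed line the median of all 457 genes tested, -0.22, and every interval covers both.

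Several signs changed when a single sample was left out, while Clec4e stayed positive throughout. Without IL10_control sample 3, S100a8 turned to -1.27, S100a9 to -1.20, Trem1 to -0.39, Cxcl1 to -0.21 and Cxcl3 to -0.15. Without IL10_control sample 2, S100a8 was 2.16 and S100a9 1.98, and Csf3r turned to 0.38. Camp turned to 0.25 without IL10_STAT sample 1. Without both IL10_control samples 2 and 3 a single mouse stood for that group, and the log2 difference of the 7 genes still tested lay between -0.50 for Csf3r and 0.47 for Clec4e. Of the 34 further pathway genes 0 passed, and those of smallest p, beside the adaptor Card9 (-0.61 ± 0.38), were Cd36 (-1.39 ± 0.35, log2 ± SE, adjusted p = 0.277, limma), Stat5a (-0.55 ± 0.30), the adaptor Myd88 (-0.24 ± 0.17) and the Tlr4 co-factor Ly96 (-0.23 ± 0.17). The 6 inducers all had a positive log2 difference, with a median of 0.91 and none passing, against 97 positive of all 457 genes tested. Il1b stood at 1.02 ± 0.87, Tnf at 0.53 ± 0.57 and Il17a at 0.69 ± 0.66. Without IL10_control sample 3 only 3 of the 6 were positive, with Il1b at -0.19, Il1a at -0.39 and Il6 at -0.061.

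In C57-labelled mice the 9 genes lay near background under both inocula. The highest values were 24.4 for S100a8 and 19.7 for Csf3r, both in WT_STAT sample 1, so no fold is given. Of the 8 tested genes 0 passed in limma's test, and 0 had an unadjusted p under 0.05, against 16.8% of all genes tested higher and 0.438% lower. Among all 457 genes tested 0.875% passed as higher and 0% as lower. Of the 34 further pathway genes 0 passed, and at an unadjusted p under 0.05 there were 9 higher and 1 lower. Il17f averaged 1.35 ± 2.34 in WT_STAT and 8.46 ± 5.91 in WT_control (adjusted p = 0.0929), and Icam1 82.6 ± 21.9 in WT_STAT and 44.6 ± 11.8 in WT_control (adjusted p = 0.121, limma, n = 3 each). Itgal averaged 152 ± 37.1 in WT_STAT and 79.4 ± 26.6 in WT_control, and Csf2rb 61.7 ± 3.99 in WT_STAT and 28.7 ± 8.54 in WT_control.

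The difference between both STAT effects, tested as an interaction, passed for 0 of the 8 genes and for 0% of all genes tested. At an unadjusted p under 0.05 there were 0 of the 8, against 0.219% of all genes tested higher and 21% lower, and adjusted p ran from 0.488 for Clec4e to 0.928 for Cxcl1. Its C57-labelled side rests on values near background. Of the further pathway genes Il17f (3.10 ± 0.87) and Cd36 (-1.70 ± 0.49) had the smallest p (log2 ± SE, adjusted p = 0.104 each, limma), followed by Card9 (-1.71 ± 0.53), Itgal (-1.07 ± 0.41) and Cybb (-1.15 ± 0.44).

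Within the IL10-labelled groups the 8 tested genes varied between mice more than most genes. Pooled over both IL10-labelled groups, the SD of log2(signal + 1) was 3.23 for Camp, 2.55 for S100a8, 2.36 for S100a9 and 2.30 for Cxcl3, against a median of 0.26 over the 457 genes tested. It was 1.86 for Trem1, 1.15 for Clec4e, 1.14 for Cxcl1 and 0.91 for Csf3r, and the 8 tested genes ranked 1 to 33 by this spread. Low values raise such an SD: with values under 20 set to 20, S100a8 ranked 1, S100a9 2, Camp 4 and Cxcl3 6, and Trem1, at 0.73, ranked 38. The spread of S100a8 was 1.12 within IL10_STAT and 3.43 within IL10_control, where the medians over all genes tested were 0.19 and 0.27. All 8 tested genes had the larger SD within IL10_control. For Trem1 it was 0.37 within IL10_STAT and 2.61 within IL10_control, for Csf3r 0.33 and 1.25, and for Cxcl1 0.68 and 1.46. For Cxcl3 it was 1.59 and 2.84, for Clec4e 0.85 and 1.38, and for Camp 3.01 and 3.43. The pooled SDs are not given without IL10_control sample 2 or 3.

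**Figure D3:**
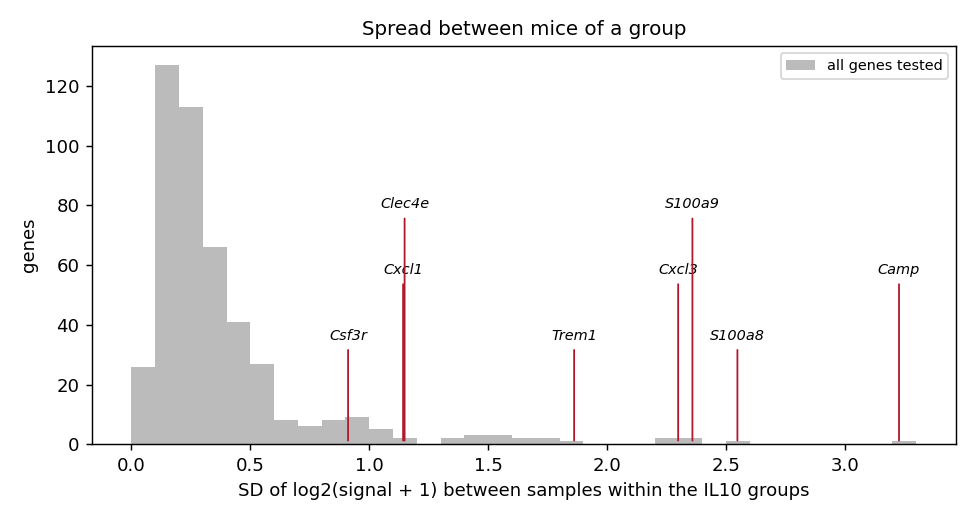
Distribution over the 457 genes tested of the SD of log2(signal + 1) between samples, pooled within IL10_STAT and IL10_control (3 samples each); the vertical axis counts genes and red lines mark 8 of the 9 genes. Csf3r is the lowest of the marked genes at 0.91, against a median of 0.26 over all genes tested.

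Within the 6 IL10-labelled samples the 9 genes fell into different profiles. IL10_control sample 2 was the highest of the 6 for 6 of the 9 genes (S100a8, S100a9, Camp, Ctsg, Trem1 and Csf3r). IL10_STAT sample 2 was the highest for the other 3, Clec4e, Cxcl1 and Cxcl3. IL10_control sample 3 was the lowest for 7, the exceptions being Camp, lowest in IL10_STAT sample 1, and Ctsg, lowest in IL10_control sample 1. In IL10_STAT sample 1 S100a8 was 1009 and S100a9 698 while Camp was 0.616 and Ctsg 1.32, so calprotectin signal was present without granule gene signal. IL10_control sample 2 exceeded sample 3 in log2(signal + 1) of S100a8, S100a9 and Camp by 6.85, 6.37 and 6.15, ranks 1, 2 and 3 of the 457 genes tested, where the median gene differed by 0.11.

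**Figure D4:**
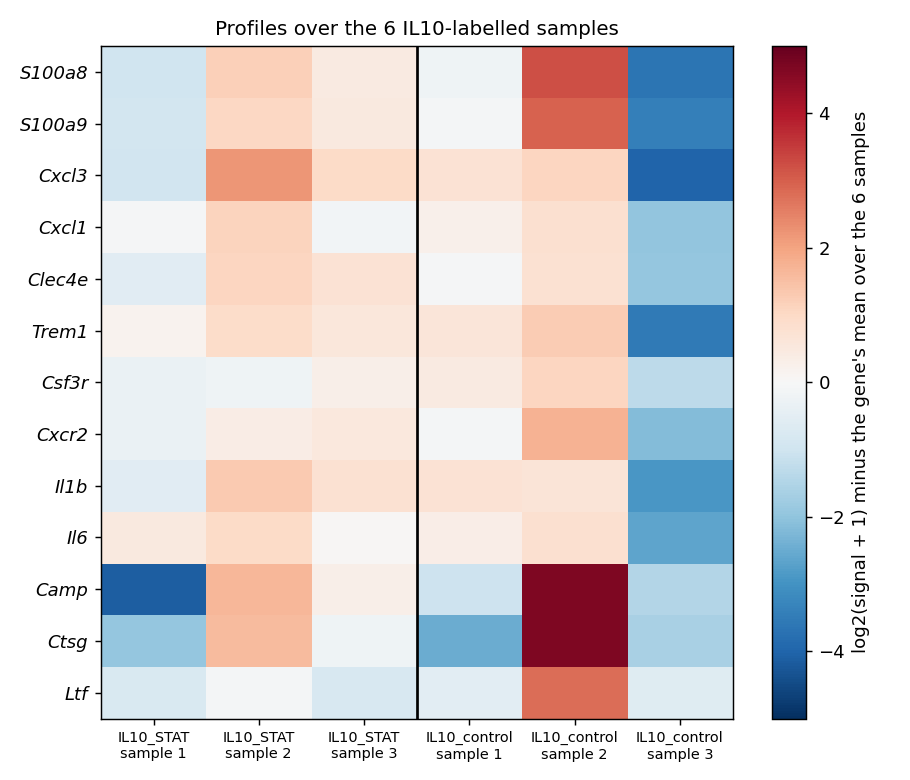
Log2(signal + 1) of the 9 genes and of Cxcr2, Il1b, Il6 and Ltf in the 6 IL10-labelled samples, each minus the gene's mean over the 6 (colour: red above, blue below, in log2 units). The vertical line separates IL10_STAT from IL10_control. Camp, Ctsg and Ltf each have their own reddest cell in IL10_control sample 2, and the upper 10 genes are blue in IL10_control sample 3.

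Likeness of profile was measured as the root-mean-square difference of log2(signal + 1) over these 6 samples after each gene's mean was subtracted, and is given without a test. S100a9 was nearest to S100a8 at 0.17, against a median of 2.08 over all genes tested, followed by Cxcr2 at 0.96 and the complement receptor gene Cr2 at 0.995. Nearest to Cxcl1 were Il1r2, the decoy receptor for IL-1 (0.27), Il6 (0.36) and Clec4e (0.42), against a median of 1.01. Cxcl3 was 1.13 from Cxcl1, although both are ligands of Cxcr2. Nearest to Csf3r were the lymphocyte genes H2-Ob, Ccr7 and Cd79b, at 0.22 each, against a median of 0.74. Ctsg had no such measure because it was under the filter.

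The 7 measured B cell markers, of 9 listed, moved between the same samples. They summed to 764 to 934 in IL10_STAT, and to 1406, 2455 and 248 in IL10_control samples 1, 2 and 3, against 201 to 950 in WT_STAT and 116 to 306 in WT_control. None was at 0 in all samples. Within WT_STAT the B cell sum was 949.7, 828 and 201 in samples 1, 2 and 3. S100a8, S100a9 and Csf3r, though near background, were highest in sample 1 and lowest in sample 3 as well, while Camp and Trem1 were highest in sample 3. The order was not particular to B cell markers: the epithelial sum was 38371, 35784 and 21125, and the macrophage and T cell sums fell likewise. WT_STAT sample 3 also had the fewest counts above background of its group, 191012. The epithelial sum, most of it Pigr, was 51168, 26516 and 48667 in IL10_control samples 1, 2 and 3. The part of lymphoid or epithelial content in the spread of the 9 genes was not tested.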

How the data were processed

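The deposited table held, for 547 genes and 12 samples, a linear signal as deposited by the authors, and 0 columns belonged to no sample. The labels' protocols gave TRIzol and RNeasy extraction of total RNA and NanoString probe pairs, but neither software nor background and scaling steps, which are therefore unknown. Within each sample the positive values were spaced by whole multiples of 1 step (100% within 0.01), and steps differed between samples. The filter required 20 or more signal units in 3 or more samples; 457 genes met it and 90 did not. In R 4.3.3, log2(signal + 1) was fitted with limma 3.58.1 (lmFit, eBayes), with 1 mean for each of the 4 groups and 5 contrasts, and p-values were adjusted over the 457 genes by Benjamini-Hochberg (threshold 0.05). The code was tested on simulated data. Where all samples of a group were under 20, folds were given as bounds on the log2(signal + 1) scale with that group at 20. Named were the 9 genes, their ligands, receptors, adaptors and inducers, up to 4 further pathway genes of smallest p per contrast, and the 3 genes nearest in profile to S100a8, Cxcl1, Csf3r and Ctsg. Ltf, Itgam, Il6, Kit and the genes of the closing observation were named after their values were seen. The 9 genes and all lists were chosen with earlier results of these data known. Groups came from the labels, and sample numbers follow the order of the records. Scaling on 18 housekeeping genes was not run, since none was in the table analysed here.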

Additional observations from a re-analysis of the deposited data

How the results depend on the processing

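No paired analysis was possible because the labels carry no replicate numbers shared between groups. In 22 alternatives the number of the 9 genes passing ran from 6 to 8 for IL10_control against WT_control and from 7 to 8 for IL10_STAT against WT_STAT, and was 0 throughout for STAT against control under either label and for the interaction. Array weights (whose fit stopped before full convergence) were the exception for other genes: 40 genes passed for STAT against control in IL10-labelled samples, 2 of them pathway genes, 83 and 10 in C57-labelled samples, and 132 and 12 in the interaction. In C57-labelled samples the count of all genes was 0 under median centring, quantile normalization, a fit of only these groups or with the per-sample factor removed, and 1 without IL10_control samples 2 and 3, these last 2 settings chosen after seeing the data. Leaving out single samples it ran from 0 to 44 (pathway genes 0 to 3), and in the interaction from 0 to 58 (0 to 2).

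For STAT against control in IL10-labelled samples the sign turned in 14 of 123 recomputed values, none of which passed. Csf3r turned to 0.14 under median centring, 0.25 under quantile normalization and 0.54 with the factor removed, Camp to 0.60 with array weights, and Trem1 to -0.062 without IL10_control samples 2 and 3. Leaving out single samples, log2 differences ran from -1.27 to 2.16 for S100a8, -1.20 to 1.98 for S100a9, -2.54 to 0.25 for Camp, -0.39 to 2.01 for Trem1, -0.21 to 1.17 for Cxcl1, -0.15 to 2.39 for Cxcl3 and -0.83 to 0.38 for Csf3r. Between genotype labels no sign turned. With the C57-labelled group set to 10 or 40 in place of 20, the STAT bounds of Clec4e were 24.8-fold and 6.67-fold. The cause of these changes was not tested.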

Other observations

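Among the 6 IL10-labelled samples, the order of S100a8 was shared in full by 5 of the 456 other genes tested (1.10%): S100a9, Il10, Csf2rb, Bst1 and Crlf2. Il10 had a signal of 31.6, 49.2 and 38.6 in IL10_STAT samples 1, 2 and 3, and 35.2, 74.4 and 24.9 in IL10_control samples 1, 2 and 3, so the sample with the most calprotectin signal also had the most Il10 signal. This was noticed after the values were seen and was not tested.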
